A study of Mus musculus with 8 samples.

Results

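The genes described here encode the translation initiation factors eIF1, eIF2, eIF3, eIF5 and eIF6, together with the exchange factor and the kinases of eIF2. They were taken by a rule on names, as every gene whose symbol begins with Eif1, Eif2, Eif3, Eif5 or Eif6, without pseudogenes. The rule was set with earlier results of these data known. There were 39 such genes among the 13838 genes listed in the footprint table, the total RNA table or both. The footprint table held 38 of them among 12818 genes, and the total RNA table held all 39 among 13436 genes. Eif3j2 was listed in total RNA and not in footprints.

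The cells were mouse J1 embryonic stem cells of strain 129S4/SvJae, a male line grown without feeder cells in serum and leukemia inhibitory factor. All cells were infected with an shRNA virus, selected with puromycin at 1 µg/mL for 3 days and taken on day 4.5 after a treatment of 1 min with cycloheximide at 0.1 mg/mL, which holds ribosomes on mRNA. The labels name 2 shRNAs against eIF4A2, a DEAD-box helicase of the cap-binding complex, and the knockdown cells carried such an shRNA. The control cells carried a control shRNA (shNT or shGFP). Ribosome footprints, the mRNA pieces that ribosomes shield from nuclease, and total RNA were each sequenced from 2 knockdown and 2 control libraries. The labels call them biological replicates but do not say which shRNA each library had, so any difference between libraries of a group may include a difference between shRNAs.

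In initiation, eIF1 and eIF1A hold the small ribosomal subunit open for scanning, and eIF2 brings the initiator tRNA as a complex with GTP. eIF3 is a scaffold of many subunits that binds the small subunit and the mRNA. eIF5 triggers GTP hydrolysis by eIF2 at the start codon, eIF5B joins the large subunit, and eIF6 keeps the large subunit from joining too early. eIF2B recharges eIF2 with GTP, and the 4 eIF2 kinases block this step by phosphorylating eIF2 alpha, which lowers general initiation and raises translation of the ATF4 mRNA.

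Many mRNAs of the translation machinery begin with a C followed by a run of pyrimidines, the 5′ terminal oligopyrimidine tract through which mTOR controls their translation. The windows shown here run from 10 bases before to 20 bases after the transcript start annotated by RefSeq (GRCm38.p6), read on the strand of the gene. Capitals mark a C followed by at least 4 bases that are each C or T. Where several such C lie within 5 bases of the annotated start, the capitals begin at the nearest. The X-linked and Y-linked copies of the eIF2 gamma gene are shown because their ratio differed between the groups. Eif1b and Eif2ak2 are shown because they had the smallest p-values in footprints. Eif3f is shown because it had the longest tract among the eIF3 genes with a window. Eif3e, Eif3h, Eif3i and Eif3j2 had no window.
Eif2s3x: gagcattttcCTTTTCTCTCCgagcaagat
Eif2s3y: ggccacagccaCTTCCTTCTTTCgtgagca
Eif1b: gcgcggggctaaatacgcggcgccggccat
Eif2ak2: agcagtgtgggaaggcggagtccgccggga
Eif3f: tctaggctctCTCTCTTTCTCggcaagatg

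Counted from that C, the tract was 11 bases long in Eif2s3x, 12 in Eif2s3y and 11 in Eif3f, and in Eif2s3x and Eif3f the run of pyrimidines reached further upstream. These letters were not in the windows of Eif1b and Eif2ak2. Among the initiation factor genes, 32 had a window, and 11 of them held the tract in at least 1 window (34.4%). Counted by window, it was in 12 of 38 (31.6%), and in 18.3% of all 32851 start windows in the table. The search was on the gene's own strand only. A match describes the letters and shows no site of action.

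The reads read back from the listed genes summed to 7947827 and 9573832 in the footprint knockdown libraries and to 9458103 in footprint control 1. The sum of 10682677 for footprint control 2 is less certain, because the value of 1 read there lies too close to 0.1 to tell from rounding. Per total RNA library the sums ran from 8564582 to 12840349 reads. Values are given in CPM, reads scaled by the authors to a common library size, in which 1 read was worth 0.0751 to 0.114 CPM. The initiation factor genes had between 31 and 17627 reads per footprint library. In total RNA they had at least 115 reads apart from Eif3j2, which had as few as 9. Eif4a2 itself had 311 and 153 CPM of footprints in the knockdown and 395 and 409 CPM in the control, 57.8% of control. Its total RNA was 583 and 617 CPM against 739 and 969 CPM, 70.3% of control. All 10 markers of embryonic stem cells (Pou5f1, Nanog, Sox2 and others) were listed in both tables, and their summed footprints were 5000 to 5064 CPM with knockdown and 6881 to 7227 CPM without. Their summed total RNA was 5131 to 5157 CPM against 6421 to 7293 CPM. Of the 10 markers 8 had a negative and 2 a positive fold change in each assay. The widest gap was that of Zfp42, at 890 CPM of footprints on average in the knockdown against 2164 CPM in the control, and 772 against 1686 CPM of total RNA. The footprints of Pou5f1 overlapped, at 91.5% of control, while Lin28a (135%) and Utf1 (120%) were higher there. The part of these differences in the values that follow was not tested. Of 10 fibroblast markers 5 were listed in footprints and 4 in total RNA, with sums between 11.1 and 26.9 CPM over all libraries. Col3a1, Fap, Postn, Dcn and Lum were listed in neither table.

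Most initiation factor genes differed little between knockdown and control, and none passed the test in either assay. Eif4a2, the target of the shRNA, did not pass it either. Its limma adjusted p was 0.273 in footprints and 0.290 in total RNA. In footprints 28 of 38 had a negative fold change, with a median log2 fold change of -0.07 against 0.01 over all 12723 genes tested. In total RNA 25 of 39 were negative, with a median of -0.06 against -0.00 over all 13436 genes. By limma with Benjamini-Hochberg adjustment 0 members were called by footprints or by total RNA, and the share called among all genes was 0% in each. The tests on reads, edgeR's quasi-likelihood test and DESeq2, also called 0 members, without control 2 in the case of footprints. The smallest adjusted p of a member was 0.302 in footprints and 0.283 in total RNA, against 0.0692 and 0.0819 over all genes. At an unadjusted p under 0.05, footprints gave 1 member higher (Eif1b) and 1 lower (Eif2ak2), where 6.12% and 6.74% of all genes were called. Total RNA gave 0 members higher and 1 lower (Eif2ak2), where 6.82% and 8.08% of all genes were called. By the FDR of the authors' deposited tables, 0 members were under 0.05, where 1.68% of all genes in footprints and 5.40% in total RNA did. With 2 libraries against 2, an exact permutation test of a single gene cannot give a p below 0.333. Because these are bulk libraries, fewer cells of a type and less RNA per cell cannot be told apart.

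Groups that did not overlap were counted as well. In footprints both knockdown libraries were above both controls for 4 of 38 members and below both for 8, where 22.3% and 22.5% of all genes were called in the same way. In total RNA the counts were 4 higher and 8 lower of 39, where 23.3% and 24.6% of all genes were. The members' shares were near or below those of all genes. Eif1ax, Eif2ak2, Eif2s2, Eif3k and Eif5a were lower without overlap in both assays. Eif2s3y, Eif3b and Eif3h were higher without overlap in both, and Eif1b was higher in footprints and lower in total RNA.

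These counts rested on single libraries. Footprint knockdown 1 held the lowest value for 27 of 38 members, whereas 27.9% of all genes were lowest there, and the members' median deviation in it was -0.14 on the log2 scale. Without knockdown 1 the members without overlap were 16 higher and 10 lower, where 36.9% and 38.6% of all genes were. Without knockdown 2 they were 6 higher and 28 lower, where 40.3% and 38.3% of all genes were. Without control 1 they were 6 and 16, where 35.3% and 33.8% of all genes were. In total RNA, control 2 held the highest value for 23 of 39 members (35.7% of all genes) and control 1 the lowest for 21 (27.6% of all genes). Without control 1 the total RNA counts were 10 higher and 25 lower (43.1% and 45.6% of all genes), and without control 2 they were 22 and 14 (42.0% and 42.6%). Without knockdown 1 they were 7 and 9 (30.8% and 32.3%). The limma calls depended on the same libraries. Without total RNA control 1 limma called 24 members, where 46.1% of all genes were called, and without control 2 it called 7, where 25.4% were. Only Eif1, Eif2ak2 and Eif3f were called both times. Eif1 and Eif3f were higher in the knockdown without control 1 and lower without control 2, while Eif2ak2 was lower both times. With 1 control library left, the spread came from the knockdown libraries. The part of these libraries in the single values below was not tested beyond the leave-one-out fits.

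**Figure D1:**
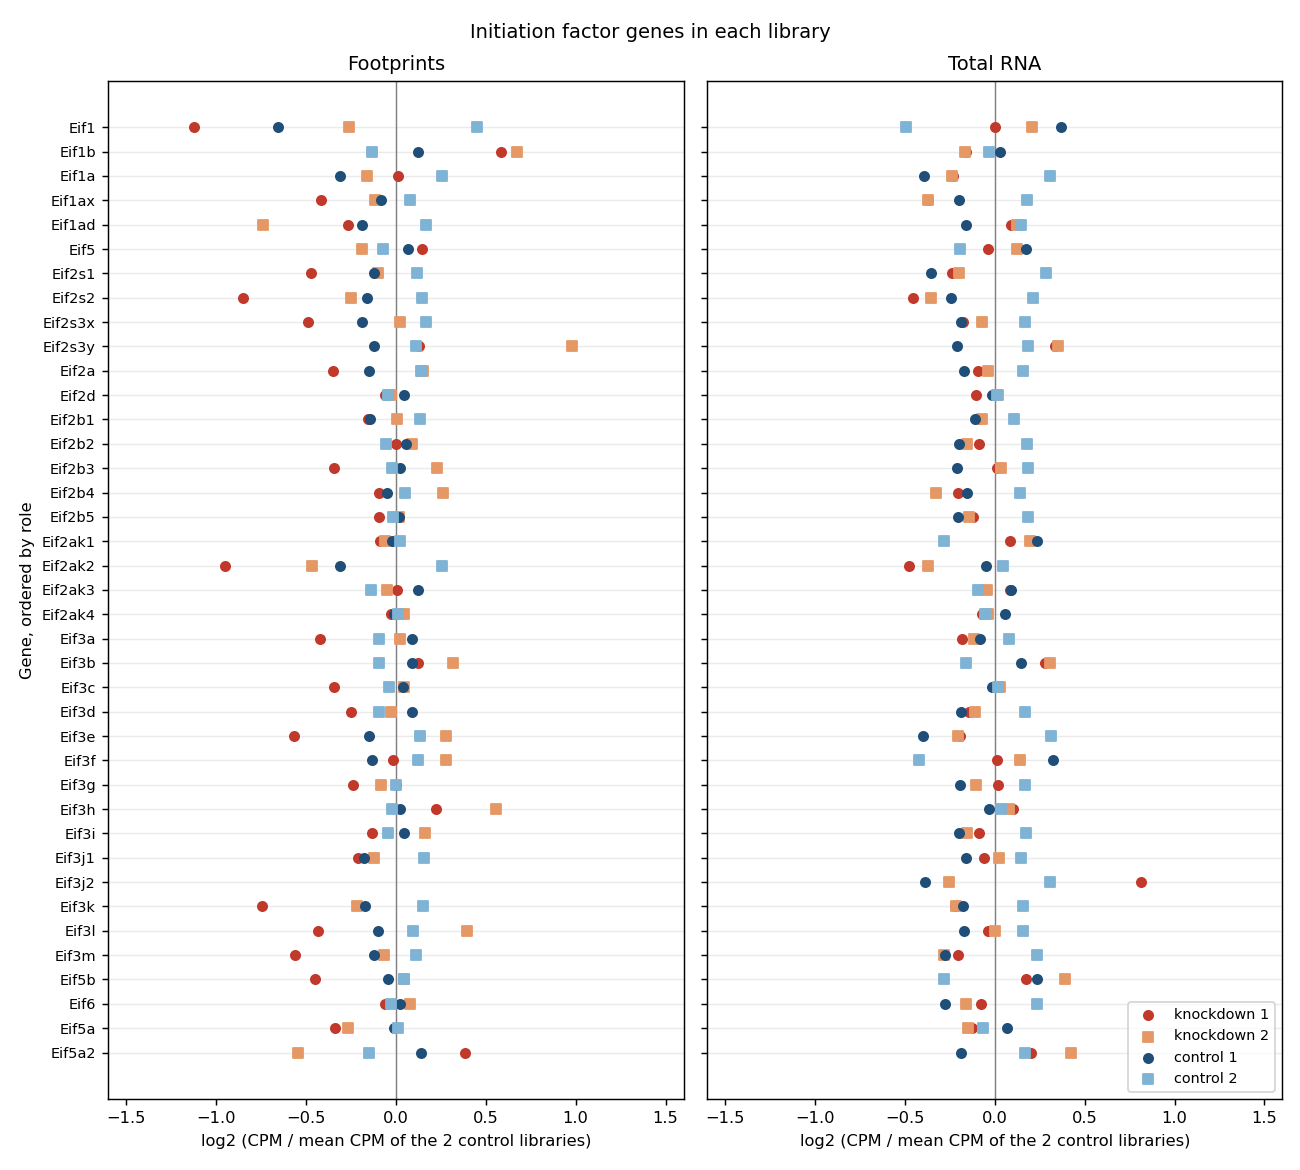
Level of each initiation factor gene in each library, as log2 of its CPM over the mean of the 2 control libraries of that assay (x axis), with genes in order of role (y axis) and 1 point per library. Footprint knockdown 1 lies to the left for most genes, and total RNA control 2 to the right.

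Among the factors that select the start codon, only Eif1b went in different directions without overlap in both assays. The fold changes of Eif1, Eif1ad and Eif5 also differed in sign between the assays, with groups that overlapped in total RNA. Eif1b encodes a close relative of eIF1, and reads of similar copies such as Eif1 and Eif1b or Eif1a and Eif1ax may be split between them. Footprints of Eif1b were 19.9 and 21.1 CPM in the knockdown and 14.4 and 12.1 CPM in the control. Its total RNA was 15.0 and 15.0 CPM against 17.1 and 16.4 CPM. Both knockdown libraries were thus above the controls in footprints and below them in total RNA. The log2 fold change in footprints was 0.60 ± 0.22 (SE), with an adjusted p of 0.302 by limma.

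Eif1, which guards the fidelity of start codon selection, was the most variable member in footprints, with a highest library 2.98 times the lowest. It had 144 and 262 CPM of footprints in the knockdown and 199 and 430 CPM in the control. In total RNA it had 202 and 233 CPM against 261 and 143 CPM. The groups overlapped in both assays. The control libraries differed in opposite order between the assays. The fold changes on the log2 scale were -0.59 ± 0.37 in footprints (limma adjusted p 0.546) and 0.16 ± 0.28 in total RNA (limma adjusted p 0.832).

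Eif1a and Eif1ax encode eIF1A, which works beside eIF1 in scanning. Eif1a had 91.1 and 80.9 CPM of footprints in the knockdown and 73.0 and 108 CPM in the control, and 201 and 201 against 180 and 293 CPM of total RNA, overlapping in both. Eif1ax had 117 and 144 CPM of footprints against 147 and 165, and 143 and 143 CPM of total RNA against 161 and 209. Eif1ax was therefore lower in each knockdown library, with a log2 fold change in total RNA of -0.36 ± 0.17 and a limma adjusted p of 0.383. Eif1ad, named for a domain like that of eIF1A, had 53.3 and 38.5 CPM of footprints against 56.4 and 72.0 CPM. Its total RNA was 101 and 104 CPM against 85.3 and 105 CPM and overlapped. The log2 fold change of Eif1ad in footprints was -0.48 ± 0.21, with a limma adjusted p of 0.394.

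Eif5, the GTPase activating protein of eIF2, was level between the groups. It had 199 and 158 CPM of footprints in the knockdown against 188 and 171 CPM in the control, and 285 and 320 against 330 and 256 CPM of total RNA. Its log2 fold change was -0.02 ± 0.17 by footprints, and 0.05 ± 0.17 by total RNA, with limma adjusted p of 0.974 and 0.913. The median log2 fold change of the 6 start codon genes was -0.16 in footprints and -0.05 in total RNA.

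Of the 4 eIF2 genes 3 had a negative and 1 a positive fold change in each assay, and none passed the test. Eif2s2, the beta subunit, had 836 and 1269 CPM of footprints in the knockdown against 1350 and 1667 CPM in the control. In total RNA it had 655 and 700 CPM against 756 and 1037 CPM. Both assays were lower without overlap, by a log2 fold change of -0.54 ± 0.25 in footprints (limma adjusted p 0.404) and -0.39 ± 0.19 in total RNA (limma adjusted p 0.414). Eif2s1, the alpha subunit that the kinases phosphorylate, had 279 and 361 CPM of footprints against 355 and 419 CPM, and 295 and 303 CPM of total RNA against 272 and 424 CPM. Its groups overlapped in both assays, with log2 fold changes of -0.28 ± 0.19 and -0.18 ± 0.22 and limma adjusted p of 0.574 and 0.751.

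The gamma subunit, which binds GTP and the initiator tRNA, is encoded by Eif2s3x on the X chromosome and by Eif2s3y on the Y chromosome. Eif2s3x had 285 and 407 CPM of footprints in the knockdown against 352 and 450 CPM in the control, and 435 and 468 CPM of total RNA against 431 and 551 CPM. Eif2s3y had 68.9 and 124 CPM of footprints against 57.8 and 68.1 CPM, and 83.8 and 84.8 CPM of total RNA against 57.3 and 75.4 CPM. The X copy overlapped between groups, and the Y copy was higher in each knockdown library than in each control. The log2 fold change of Eif2s3y was 0.55 ± 0.26 in footprints (limma adjusted p 0.429) and 0.35 ± 0.17 in total RNA (limma adjusted p 0.399). The footprint value of Eif2s3y was 0.97 without knockdown 1 and 0.13 without knockdown 2. The values of Eif2s3x were -0.22 ± 0.22 (limma adjusted p 0.71) and -0.11 ± 0.17 (limma adjusted p 0.809).

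Within each library the Y copy made up a larger part of the pair in the knockdown. The ratio of Eif2s3y to Eif2s3x in footprints was 0.242 and 0.304 for the knockdown libraries against 0.164 and 0.151 for the controls. In total RNA it was 0.193 and 0.181 against 0.133 and 0.137. The knockdown mean was 1.73 times the control mean in footprints and 1.39 times in total RNA, and the groups did not overlap in either. For 2 other X and Y pairs, chosen after the values were seen, the ratio was not higher in the knockdown. The ratio of Ddx3y to Ddx3x (RNA helicases) overlapped in footprints and was lower in the knockdown in total RNA, at 0.0962 and 0.104 against 0.124 and 0.136. The ratio of Uty to Kdm6a (histone demethylase genes) was lower in both assays, at 0.896 times the control mean in footprints and 0.839 times in total RNA. The sources used here do not say how reads that match both copies of a pair were counted, so the split between copies is uncertain. No exact test of these ratios can give a p below 0.333.

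**Figure D2:**
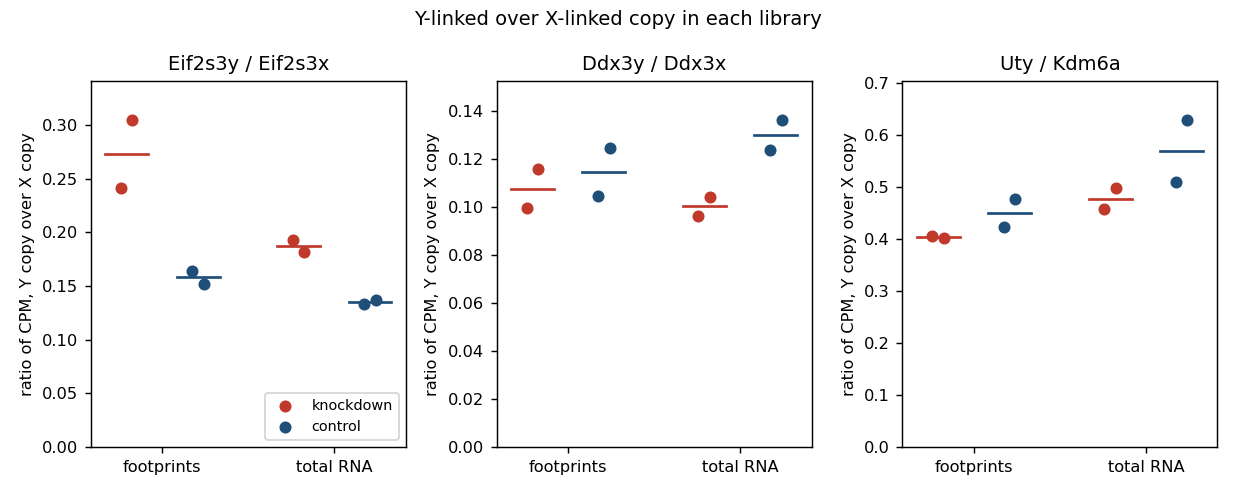
Ratio of the CPM of the Y-linked copy to that of the X-linked copy (y axis, from 0) in each library, for footprints and total RNA, with the mean of each group as a line. For Eif2s3y over Eif2s3x the knockdown libraries lie above the controls in both assays, and for the other pairs they do not.

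Eif2a and Eif2d encode factors that can deliver tRNA to the ribosome without eIF2. Eif2a had 114 and 160 CPM of footprints in the knockdown against 130 and 159 CPM in the control, and 129 and 134 against 122 and 153 CPM of total RNA. Eif2d had 145 and 148 CPM of footprints against 156 and 146 CPM, and 160 and 174 against 171 and 174 CPM of total RNA. Both genes overlapped between groups in both assays.

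The footprints of all 5 eIF2B subunits overlapped between groups, with knockdown means between 95.1% of control (Eif2b1) and 107% (Eif2b4). Eif2b1 had 81.1 and 90.9 against 81.7 and 99.2 CPM of footprints, Eif2b2 had 76.4 and 81.2 against 79.3 and 73.3, and Eif2b3 had 85.5 and 127 against 110 and 107. Eif2b4 had 83.8 and 107 against 86.5 and 92.6 CPM, and Eif2b5, the catalytic subunit, had 164 and 177 against 176 and 172 CPM. In total RNA Eif2b4 was lower without overlap, at 65.0 and 59.7 CPM against 67.1 and 82.6 CPM, and the other 4 overlapped. Total RNA of Eif2b1 was 63.2 and 64.0 CPM against 62.2 and 72.3, that of Eif2b2 56.7 and 54.1 against 52.3 and 68.0, that of Eif2b3 82.9 and 84.5 against 71.1 and 93.7, and that of Eif2b5 240.2 and 237 against 226 and 297. These 4 had knockdown means between 91.1% of control (Eif2b5) and 102% (Eif2b3). The median log2 fold change of the 5 genes was -0.04 in footprints and -0.11 in total RNA.

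Of the eIF2 kinases, Eif2ak2 had the lowest p of any member in total RNA and the lowest among members with a negative fold change in footprints. Eif2ak2 encodes PKR, which responds to double-stranded RNA. Its footprints were 21.4 and 29.9 CPM in the knockdown and 33.4 and 49.5 CPM in the control. Its total RNA was 27.2 and 29.2 CPM against 36.7 and 39.1 CPM. It was lower in both knockdown libraries of each assay, at 61.9% of control in footprints and 74.5% in total RNA. The log2 fold changes were -0.66 ± 0.25 (limma adjusted p 0.321) and -0.41 ± 0.14 (limma adjusted p 0.283).

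The other 3 kinases were close to control, though footprints of Eif2ak1 were lower without overlap, at 95.0% of control. Eif2ak1 (HRI, a sensor of heme) had 42.5 and 43.4 CPM of footprints in the knockdown against 44.6 and 45.9 CPM, and 58.5 and 63.0 CPM of total RNA against 64.9 and 45.4 CPM. Eif2ak3 (PERK, a sensor of stress in the endoplasmic reticulum) had 31.4 and 30.2 against 34.1 and 28.4 CPM of footprints, and 38.2 and 35.0 against 38.4 and 33.7 CPM of total RNA. Eif2ak4 (GCN2, a sensor of amino acid shortage) had 27.0 and 28.5 against 27.4 and 27.8 CPM of footprints, and 43 and 44.0 against 46.9 and 43.5 CPM of total RNA. Eif2ak4 was the steadiest member in footprints, its highest library being 1.05 times its lowest. The log2 fold changes in footprints were -0.07 ± 0.17 for Eif2ak1, -0.02 ± 0.19 for Eif2ak3 and 0.01 ± 0.19 for Eif2ak4, with limma adjusted p of 0.891, 0.98 and 0.99. In total RNA they were 0.16 ± 0.20, 0.02 ± 0.15 and -0.05 ± 0.14, with limma adjusted p of 0.754, 0.961 and 0.895.

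Genes that act on the eIF2 kinases or downstream of them were counted from gene lists. These lists, and that of the small-subunit partners below, were chosen with earlier results of these data known. Their counts beside the shares of all genes are therefore a description. Of 11 tested regulators of the kinases and of eIF2 phosphatase, 6 were negative in each assay, with a median of -0.07 for footprints and -0.17 for total RNA, and 0 were called. At an unadjusted p under 0.05, 0 of the 11 were higher and 1 lower in footprints, where 6.12% and 6.74% of all genes were. In total RNA 0 were higher and 2 lower, where 6.82% and 8.08% of all genes were. Hspa5, the chaperone that holds PERK inactive, had a log2 fold change of -0.51 ± 0.19 by footprints, and -0.57 ± 0.20 by total RNA, with limma adjusted p of 0.315 and 0.274. Prkra, an activator of PKR, had -0.60 ± 0.28 and -0.69 ± 0.21, with limma adjusted p of 0.417 and 0.237.

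Of 16 tested targets of ATF4, the transcription factor made when eIF2 alpha is phosphorylated, 9 were negative in footprints and 10 in total RNA. Limma called 0 of the 16 in either assay. Their medians were -0.05 and -0.26. At an unadjusted p under 0.05, 1 of the 16 was higher and 2 lower in footprints, where 6.12% and 6.74% of all genes were. In total RNA 1 was higher and 7 lower, where 6.82% and 8.08% of all genes were. Asns, the asparagine synthetase, had a log2 fold change of -1.06 ± 0.16 in footprints (limma adjusted p 0.0703) and -1.12 ± 0.20 in total RNA (limma adjusted p 0.114). Aldh1l2, a mitochondrial folate enzyme, had -1.59 ± 0.39 (limma adjusted p 0.17) and -1.12 ± 0.20 (limma adjusted p 0.114). In the authors' deposited tables the FDR of Asns was 0.0044 in footprints and 7.5e-05 in total RNA. That of Aldh1l2 was 0.024 and 0.0016. By that FDR, 1.68% of all genes in footprints and 5.40% in total RNA were under 0.05. Ddit4 and Chac1 were higher without overlap in both assays. Their knockdown means were 172% and 125% of control in footprints, and 147% and 168% in total RNA. Of the 16, 4 were higher and 6 lower without overlap in footprints, where 22.3% and 22.5% of all genes were. In total RNA 2 were higher and 8 lower, where 23.3% and 24.6% of all genes were. Atf4 itself, counted in the list, overlapped in both assays, at 91.7% and 86.6% of control. Slc7a11 was not listed in either table.

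**Figure D3:**
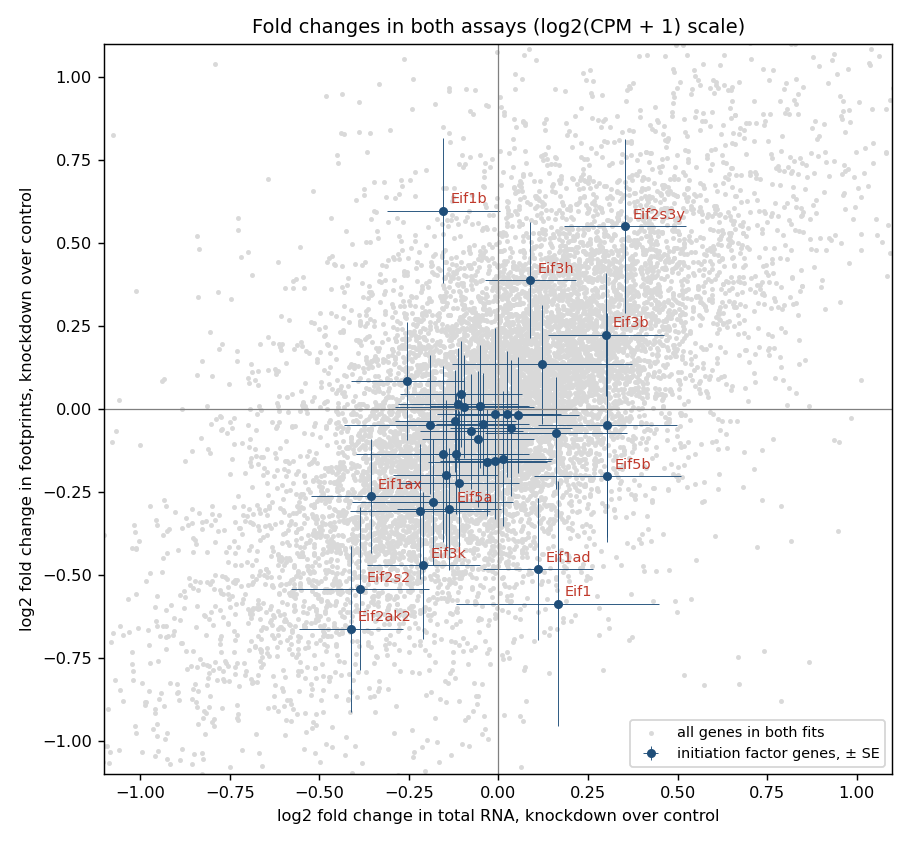
Log2 fold change, knockdown over control, in total RNA (x axis) and in footprints (y axis), on the log2(CPM + 1) scale, with the initiation factor genes in blue with SE bars and all 12358 genes in both fits in gray. The axes end at 1.1, beyond which 306 genes lie. Eif1b lies apart at 0.60 in footprints with a negative total RNA value, and Eif2ak2 lies lowest at -0.66.

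The eIF3 subunits did not move as a block. In footprints 9 of 13 had a negative fold change and in total RNA 9 of 14, with medians of -0.14 and -0.02. In each assay 2 of them were higher and 2 lower without overlap. Of all genes, 22.3% were higher and 22.5% lower in footprints, and 23.3% and 24.6% in total RNA. The eIF3 shares were below these. Eif3h, a subunit that budding yeast lacks, had 276 and 348 CPM of footprints in the knockdown against 240 and 233 CPM in the control. In total RNA it had 244 and 241 CPM against 223 and 234 CPM, higher in both libraries by a small margin. The log2 fold change in footprints was 0.39 ± 0.17, with a limma adjusted p of 0.397.

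Eif3b, a core subunit, had 841 and 962 CPM of footprints against 821 and 722 CPM and 727 and 740 CPM of total RNA against 661 and 536 CPM. It was higher in both assays, with a log2 fold change in total RNA of 0.30 ± 0.16 and a limma adjusted p of 0.446. Eif3k had 423 and 608 CPM of footprints against 629 and 787 CPM, and 251 and 251 CPM of total RNA against 259 and 326 CPM. It was lower in both assays, at 72.8% of control in footprints and 85.9% in total RNA. Eif3g had 307 and 341 CPM of footprints against 362 and 363 CPM and was lower without overlap there, while its total RNA overlapped. Eif3a, the largest subunit, had 681 and 714 CPM of total RNA against 730 and 818 CPM and was lower without overlap there, while its footprints, at 1313 and 1786 against 1872 and 1649 CPM, overlapped.

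The footprints of the other eIF3 genes overlapped between groups. Eif3c had 861 and 1127 CPM against 1125 and 1063, Eif3d had 641 and 749 against 809 and 715, and Eif3i had 244 and 299 against 276 and 259. Eif3e had 263 and 471 CPM against 350 and 427, and Eif3l had 362 and 643 against 456 and 522. In both, the knockdown libraries lay on either side of the controls. Eif3f had 238 and 292 CPM against 220 and 262, Eif3j1 had 112 and 119 against 115 and 144, and Eif3m had 224 and 317 against 305 and 358. Over the eIF3 genes the median deviation of footprint knockdown 1 was -0.18 and that of knockdown 2 was 0.12 on the log2 scale, a gap between knockdown libraries wider than the median fold change. In total RNA the 9 eIF3 genes other than Eif3a, Eif3b, Eif3h, Eif3k and Eif3j2 also overlapped, with knockdown means between 84.5% of control (Eif3m) and 106% (Eif3f). Eif3c had 647 and 659 CPM of total RNA against 640.0 and 654, Eif3d had 419 and 429 against 407 and 520.4, and Eif3e had 281 and 278 against 243 and 399. Eif3f had 224 and 245 CPM against 278 and 166, Eif3g had 206 and 189 against 178 and 228, and Eif3i had 284 and 271 against 264 and 341. Eif3j1 had 133 and 141 CPM against 124 and 153, Eif3l had 389 and 401 against 355 and 446, and Eif3m had 255 and 241 against 242 and 345. Total RNA control 2 held the highest value for each of these except Eif3c and Eif3f. Eif3c was the steadiest member in total RNA, its highest library being 1.03 times its lowest. Eif3j2 had 2.37 and 1.13 CPM of total RNA against 1.03 and 1.66 CPM, too few reads for a comparison, and it is a near copy of Eif3j1, so its reads are uncertain.

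Among the factors that act at and after subunit joining, Eif5a was lower without overlap in both assays. Eif5a encodes the hypusine-bearing factor that helps ribosomes through hard peptide bonds. It had 1031 and 1088 CPM of footprints in the knockdown against 1298 and 1314 CPM in the control, and 808 and 797 CPM of total RNA against 925 and 843 CPM. Its knockdown mean was 81.1% of control in footprints and 90.8% in total RNA, and neither passed the test. Its relative Eif5a2 had 17.2 and 20.1 CPM of total RNA against 13.1 and 16.9 CPM, a log2 fold change of 0.30 ± 0.19 with a limma adjusted p of 0.511. The footprints of Eif5a2 were 6.19 and 3.24 CPM against 5.20 and 4.26 CPM and overlapped.

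Eif5b had 302 and 426 CPM of footprints in the knockdown against 400 and 426 CPM in the control. In total RNA it had 170 and 198 CPM against 178 and 124 CPM, which overlapped. Eif6 had 193 and 212 CPM of footprints against 205 and 198 CPM, and 196 and 185 CPM of total RNA against 171 and 243 CPM. Eif6 had a log2 fold change of 0.01 ± 0.16 by footprints, and -0.10 ± 0.19 by total RNA, with limma adjusted p of 0.989 and 0.861.

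Of 15 partners of the small-subunit complex from a gene list, 9 had a positive fold change in footprints and 11 in total RNA, with medians of 0.05 and 0.06, and 0 were called. At an unadjusted p under 0.05, 3 of the 15 were higher and 2 lower in footprints, where 6.12% and 6.74% of all genes were. In total RNA 1 was higher and 0 lower, where 6.82% and 8.08% of all genes were. Mcts2 had a log2 fold change of -0.68 ± 0.21 in footprints, with a limma adjusted p of 0.258. It is a near copy of Mcts1, the partner of the reinitiation factor Denr, so its reads are uncertain. Bzw1, which competes with eIF5 for eIF2, had 0.56 ± 0.18 in footprints, with a limma adjusted p of 0.259. In total RNA the smallest p-values were those of Dhps, which makes hypusine on eIF5A, at 0.33 ± 0.13 (limma adjusted p 0.329), and of Trmt61a, a tRNA methyltransferase subunit, at 0.31 ± 0.17 (limma adjusted p 0.452).

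The ratio of footprints to total RNA stood above the middle of all genes for most members in the control cells. The ratio had a median of 1.09 over 38 members and 0.793 over all 12358 genes, whose quartiles were 0.548 and 1.11. It was above the median of all genes for 31 of 38 members and above the upper quartile for 18, and it was below the lower quartile for 2. All 13 eIF3 genes were above the median of all genes, with a median of 1.22, and the 5 eIF2B genes had a median of 1.27. The highest ratios were those of Eif5b at 2.74, Eif3k at 2.42 and Eif3a at 2.28, and the lowest were those of Eif5a2 at 0.316 and Eif1a at 0.383. This ratio also depends on how much of a transcript is coding, and the tables were normalized separately, so it is a description with no test.

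The change of that ratio with knockdown, taken as limma's interaction term between assay and shRNA, was called for 0 members and for 0% of all genes. Its median was -0.05 over the members and -0.00 over all genes, and 24 of 38 members were negative. At an unadjusted p under 0.05, 1 member was higher (Eif1b) and 0 lower, where 0.955% and 0.599% of all genes were called. The share of all genes whose ratio ranges did not overlap between groups was not counted. Eif1b, picked by its p, went from a ratio of 0.791 in the control to 1.37 in the knockdown. Its ranges over combinations of libraries were 0.706 to 0.880 and 1.33 to 1.41 and did not overlap. The ranges of Eif1ad, Eif3h and Eif5a did not overlap either, being higher in the knockdown for Eif3h and lower for Eif1ad and Eif5a. Non-overlap was thus not particular to Eif1b. The interaction of Eif1b was 0.75 ± 0.26 (unadjusted p 0.0174 and limma adjusted p 1). The next positive value by p was Eif2b4 at 0.34 ± 0.25. The smallest p among negative values were those of Eif1ad at -0.59 ± 0.28 and Eif5b at -0.51 ± 0.30. Each of these had a limma adjusted p of 1. The lowest value was that of Eif1, at -0.75 ± 0.55.

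**Figure D4:**
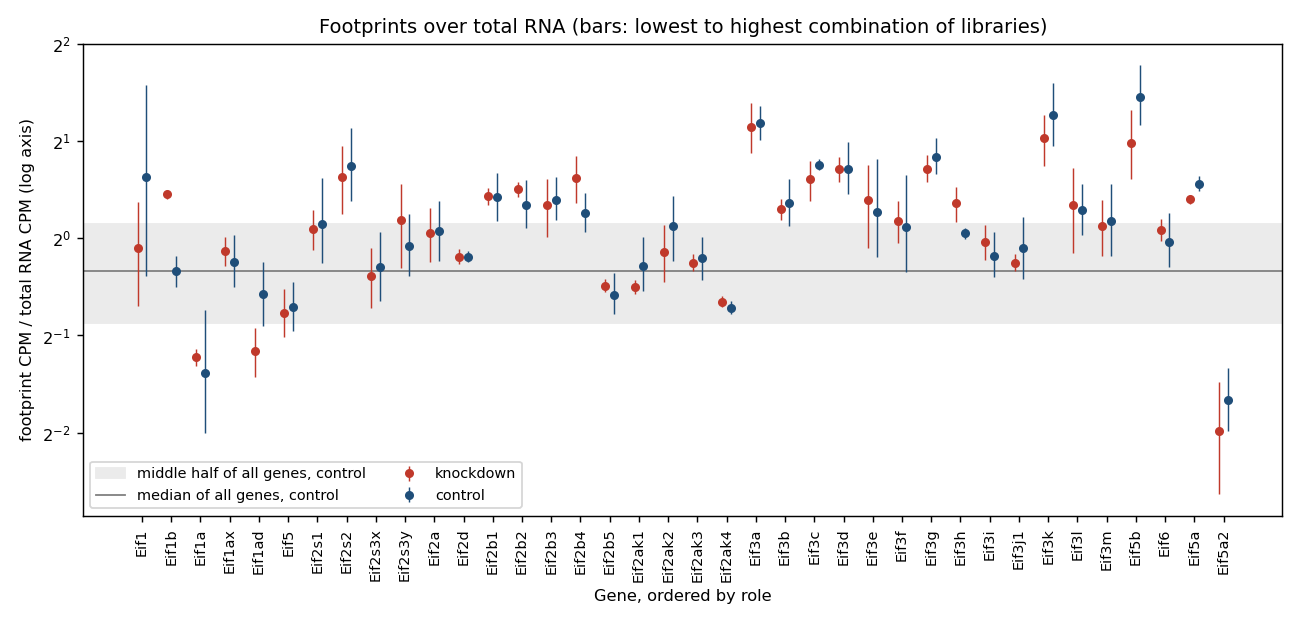
Footprint CPM over total RNA CPM (y axis, log scale) of each initiation factor gene (x axis, by role) in knockdown and control, as the ratio of group means, with bars from the lowest to the highest combination of libraries. The gray band spans the quartiles of all genes in the control, 0.548 to 1.11, and the line is their median of 0.793. Eif1b lies at 1.37 in the knockdown and 0.791 in the control.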

How the data were processed

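Footprints and total RNA were measured in 8 libraries, 4 groups of 2. The library columns the authors deposited hold signal, reads of each gene divided by an effective library size and brought to the CPM scale. Other deposited columns give log2 values (a fold change and a mean level), a likelihood ratio as a score, and p-values with the authors' FDR. Per the submitters' processing notes, Bowtie 1.2.3, TopHat2 2.1.1, HTSeq 0.11.2 and edgeR 3.26.8 were used with the build mm9, with no role given for each. Values were whole multiples of 1 step per column (100% of genes within 0.01 read), from which reads were recovered. The step of footprint control 2 was too close to 0.1 to tell from rounding, so no count test used that column.

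Because the values were not counts, limma 3.58.1 (R 4.3.3, variance prior following the mean) was run on log2(CPM + 1) within each assay, after edgeR's filterByExpr (edgeR 4.0.16, minimum count 10, minimum total 15). This scale understates the change of genes with few reads. P-values were adjusted over all genes tested, at a threshold of 0.05, and all fold changes are knockdown over control. The change in translational efficiency was the interaction of assay and knockdown over 8 libraries. The groups share replicate numbers, but the labels do not say that a number pairs libraries. The scripts were tested on simulated data. Alternatives were another pseudocount (0.5 and 4), no filter, median-ratio scaling, all libraries in 1 fit, a replicate block, leaving out each library, edgeR's quasi-likelihood test and DESeq2 1.42.0. Coding lengths were not used here, so levels are not compared between genes.

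Every member is named with its levels. Fold changes with SE are given for the 3 members with the smallest p per direction in each assay, 2 per direction in translational efficiency, and always for Eif1, Eif5, Eif2s1, Eif2s3x, Eif2s3y, Eif2ak1 to Eif2ak4 and Eif6, and from each pathway list for the 2 genes with the smallest p in each assay. The members and lists were chosen with earlier results of these data known.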

Additional observations from a re-analysis of the deposited data

How the results depend on the processing

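Of 32 named fold changes, 18 kept their direction under every alternative run and 14 reversed under at least 1. The values that passed the threshold under an alternative were all in total RNA without control 1 or control 2. Among them was Eif1 both times, higher in the knockdown without control 1 and lower without control 2. The cause of these shifts was not tested. Against 0 genes called by the limma fits, footprints gave 89 with all 8 libraries in 1 fit, 21 with the replicate block, 3 by edgeR and 10 by DESeq2 (both without footprint control 2), and 1 to 36 leaving out each library. Total RNA gave 97 with all 8 libraries, 636 with the replicate block, 272 by DESeq2 and 34 to 6191 leaving out each library. Translational efficiency gave 1 with the replicate block and 0 to 1 leaving out each library. The replicate block called 0 members. Replicate numbers are shared between groups without a stated pairing, and deviations of libraries with the same number correlated at 0.231 in footprints and -0.275 in total RNA.

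Leaving out each library, the number of members called in total RNA ran from 0 to 24. The members' median log2 fold change ran from -0.2199 to 0.01622 in footprints, -0.1744 to 0.06041 in total RNA and -0.1986 to 0.09517 in translational efficiency, where edgeR gave 0.07139. Members without overlap, an alternative added after seeing the data, ran from 6 to 16 higher and from 10 to 28 lower in footprints, and from 5 to 22 higher and 9 to 25 lower in total RNA. Reversed fold changes leaving out each library ran in footprints from -0.1848 to 0.148 for Eif5, -0.4787 to 0.0331 for Eif2s3x, -0.1419 to 0.1113 for Eif2ak3, -0.02922 to 0.04365 for Eif2ak4 and -0.06256 to 0.07662 for Eif6. In total RNA they ran from -0.2641 to 0.5941 for Eif1, -0.1278 to 0.2364 for Eif5, -0.5024 to 0.1369 for Eif2s1, -0.2884 to 0.0668 for Eif2s3x, -0.0937 to 0.413 for Eif2ak1, -0.06735 to 0.1143 for Eif2ak3, -0.1066 to 0.001648 for Eif2ak4 and -0.3492 to 0.1581 for Eif6. Fold changes that kept their direction in these leave-one-out fits also moved by over 1.5 times leaving out 1 library. In footprints they ran from -1.14 to -0.03 for Eif1, -0.47 to -0.10 for Eif2s1, -0.84 to -0.24 for Eif2s2, 0.13 to 0.97 for Eif2s3y, -0.94 to -0.39 for Eif2ak2, -0.71 to -0.25 for Eif1ad and 0.22 to 0.56 for Eif3h. In total RNA they ran from -0.54 to -0.17 for Eif1ax, -0.62 to -0.16 for Eif2s2, 0.16 to 0.55 for Eif2s3y, 0.15 to 0.45 for Eif3b and 0.14 to 0.47 for Eif5a2. In translational efficiency they ran from -0.82 to -0.36 for Eif1ad, 0.16 to 0.52 for Eif2b4 and -0.76 to -0.25 for Eif5b. Without footprint control 2, the footprint fold change of Eif1 reversed in the count tests, to 0.03218 by edgeR and 0.03712 by DESeq2. That of Eif6 was -0.01288 and -0.01003. Count tests of footprints on all 4 libraries were not run. Depth limits Eif3j2 and Eif5a2 most.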
